A study of Mus musculus with 12 samples.

Results

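The genes described here pattern the wall of the embryonic heart ventricle, and were followed in bulk RNA sequencing of mouse ventricles: Hey2, Mycn, Prdm16, Tbx20, Bmp10, Irx3, Irx5, Cited1, Smpx and Hand1. They were taken by gene symbol, and each matched 1 Ensembl gene, so that they are 10 of the 40800 genes in the deposited count table. All 10 passed the low-count filter that left 14774 genes for testing. Ventricles with Wnt gain of function (Wnt GOF), meaning that signalling through the Wnt pathway was raised, gave 6 libraries, and control ventricles gave 6. All 12 were heart tissue at embryonic day 12.5. The labels name neither the allele nor a Cre driver, and do not say whether a library holds 1 embryo or several, or which ventricle. The p-values therefore speak of the spread among these libraries, which may be technical.

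In the mid-gestation ventricle the wall is built of an outer compact layer of proliferating cardiomyocytes and an inner meshwork of trabeculae, whose cells divide less and mature towards conduction and contraction. Endocardial signals, among them Notch and neuregulin, drive the trabeculae, while transcription factors hold the identity of each layer. Hey2, Mycn, Prdm16 and Tbx20 are known in the mouse for promoting growth or identity of the compact wall, although Tbx20 is expressed across the myocardium and in the endocardium. Bmp10, Irx3, Irx5, Cited1 and Smpx are used as genes of the trabecular side, and Hand1 marks the left ventricle. Bulk counts do not separate the layers: fewer cells of a type and less RNA per cell cannot be told apart.

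Deposited counts, each gene counted once, summed to between 12127026 and 17184662 per Wnt GOF library and to between 10130088 and 17526325 per control library. Cardiomyocyte markers summed to 33000 to 42820 CPM (reads of a gene relative to the scaled library total) in Wnt GOF and 34260 to 46260 CPM in control libraries, and 0 of 10 passed the test. Of 9 tested Wnt targets, edgeR called 3 as higher, the feedback genes Axin2, Notum and Rnf43, and 8 were higher at an unadjusted p under 0.05. Over all tested genes 0.433% were called as higher and 3.73% were higher at that unadjusted p. Calls were lost for Axin2 with the replicate number as a block (edgeR adjusted p = 0.125), for Axin2 and Notum in limma-voom (adjusted p = 0.205 and 0.335), and for all 3 with the closest library pairs summed (edgeR adjusted p = 0.161 to 0.22). Wnt GOF replicate 5 was the lowest of its group for these 3 genes. Its Axin2, at 3.78 CPM, lay inside the control range of 1.39 to 4.13 CPM and under the 14.9 to 26 CPM of the other Wnt GOF libraries. Its Notum, at 1.18 CPM, and its Rnf43, at 1.11 CPM, lay above the highest control libraries, at 0.874 and 0.694 CPM. The libraries were also clustered by their deviations from group means, with the number of sets fixed at 3. Each set held 2 Wnt GOF and 2 control libraries. In sets 2 and 3 libraries of the same group deviated together, with correlations from 0.362 to 0.605. In set 1 they did not, at -0.053 for control replicates 1 and 6 and -0.0754 for Wnt GOF replicates 5 and 6. These sets were found in the same data, so values within them are given below as descriptions.

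Of the 10 regulators, only Hey2 passed edgeR's quasi-likelihood test over all genes, and it fell. The other 9 did not pass. Over all tested genes 0.501% were called, 0.433% as higher and 0.0677% as lower. Irx3 and Irx5 had unadjusted p-values under 0.05 and lay higher in Wnt GOF. Thus 3 of the 10 members reached that mark, 2 higher and 1 lower, against 6.3% of all tested genes, 3.73% higher and 2.57% lower. The members were chosen with earlier results of these data known, so this share is a description. Hey2 ranked 17 by p-value among the 14774 genes.

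Hey2 (ENSMUSG00000019789) encodes a basic helix-loop-helix repressor of the Hairy family that is expressed in the compact layer of the mouse ventricle and holds back trabecular and atrial genes there. It ran from 63.9 to 81.3 CPM with a median of 72.2 CPM in Wnt GOF libraries, and from 88.1 to 105.8 CPM with a median of 97.4 CPM in control libraries. The groups did not overlap: every Wnt GOF library lay under every control library, an arrangement seen in either direction in 0.46% and as a decrease in 0.162% of all tested genes. Hey2 averaged 72.4 ± 5.64 CPM in Wnt GOF and 97.4 ± 6.9 CPM in control ventricles (SD, n = 6 each), which makes -0.43 ± 0.0716 on the log2 scale (SE; edgeR quasi-likelihood adjusted p = 0.0145). It fell by 25.7%, with a 95% interval of the fold from 0.669 to 0.826.

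Hey2 was lower in Wnt GOF in each of the 3 library sets. Its mean was 68.9 CPM in Wnt GOF and 90.1 CPM in control libraries of set 1, 71.1 and 104.7 CPM in those of set 2, and 77.1 and 97.3 CPM in those of set 3. These means give log2 ratios of -0.39, -0.56 and -0.34. Wnt GOF replicate 5, the library with control-like Axin2, had 73.9 CPM of Hey2 and so lay with its group. Leaving out any 1 library kept the call, with log2 fold changes between -0.46 and -0.39 and edgeR adjusted p-values up to 0.0404. The 3 closest library pairs were also summed into 1 sample each. The log2 fold change was then -0.43 but the call was lost (edgeR adjusted p = 0.208). The mean chi-square between libraries was 3.07 to 3.32 in these pairs, against 12.8 to 59.4 in the other pairs formed. The labels do not say how libraries of a pair are related, and leaving out 1 library keeps its close partner. In the authors' deposited table, Hey2 has a log2 fold change of -0.429 with an adjusted p of 0.0343.

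The spread of Hey2 between libraries was small. Its biological coefficient of variation, edgeR's estimate of the variation between libraries beyond counting, was 10.3%, lower than in all but 6.67% of tested genes, against a median of 15.9% over all genes. Tbx20 was as steady, at 10.4%, while Bmp10, Irx3, Irx5 and Hand1 lay between 20.1% and 22.6%.

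**Figure D1:**
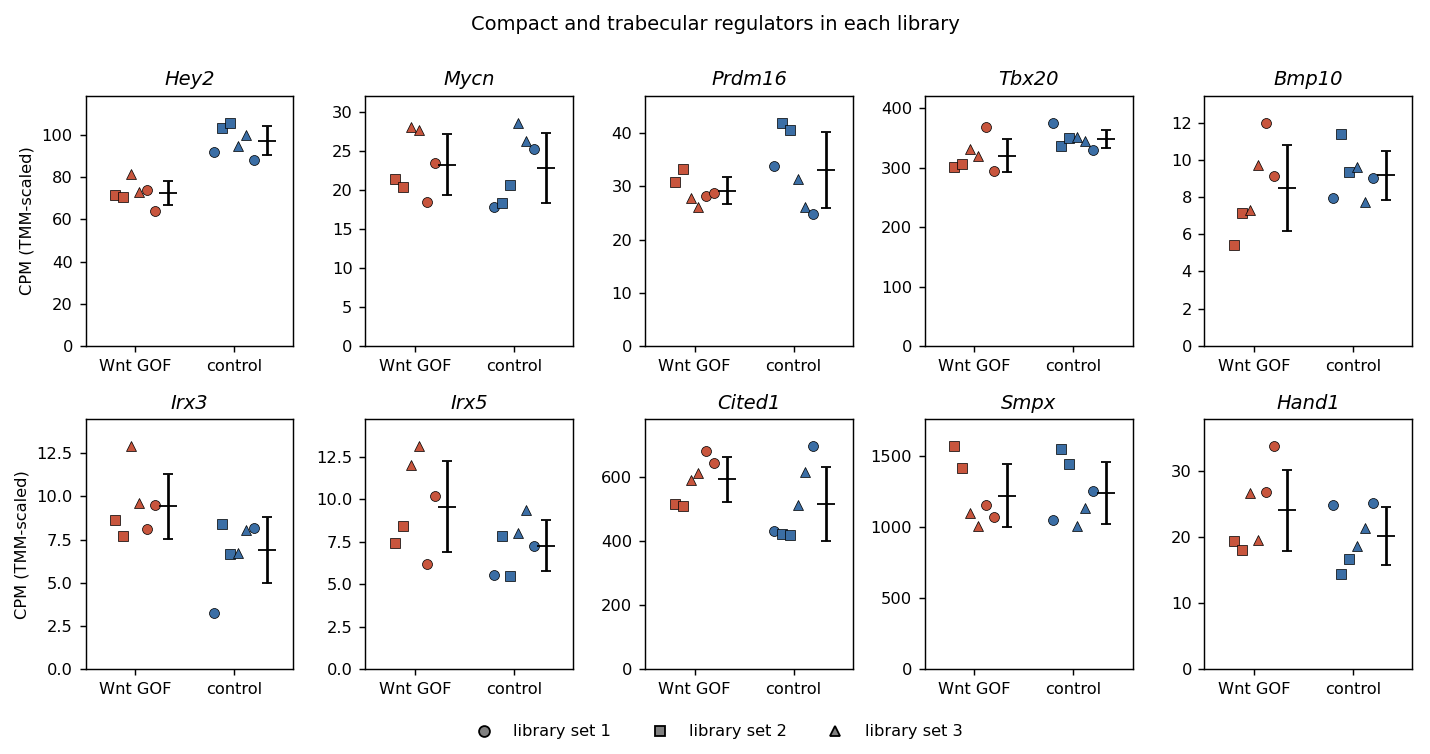
Level of each of the 10 regulators in CPM (vertical axes, from 0) in the 6 Wnt GOF libraries (orange, left) and the 6 control libraries (blue, right), with marker shape for the library set and black bars for mean ± SD. The 6 Hey2 values of Wnt GOF libraries, 63.9 to 81.3 CPM, lie under all control values, which start at 88.1 CPM, and the groups overlap in the other 9 genes.

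The Hey2 promoter is shown because Hey2 was the member that changed and is known as a target of Notch, whose DNA-binding partner is RBPJ. RefSeq promoter windows on GRCm38.p6, from 250 bases before to 50 after a gene's start, were found for 8 of the 10 members, and Irx5 and Hand1 had none. The motifs were chosen with the Hey2 result known, and both strands were searched. The letters bound by RBPJ, GTGGGAA, occurred at 2 places in the Hey2 window, beginning at -207 (on the opposite strand) and -4 bases from the start. Of 32851 promoter windows of this length, 6.38% hold these letters and 0.256% hold them at least at 2 places. No other member's window holds them. The Wnt effectors TCF and LEF bind letters spelled CTTTGAA or CTTTGAT, and likewise CTTTGTA or CTTTGTT, which stand in 16.9% of windows. None of these was in the Hey2 window. Mycn had 1 such match, beginning at -14. The core letters bound by T-box factors, AGGTGT, present in 13.7% of windows, occurred among the members in Prdm16 alone. A match is a run of letters, not a shown binding site. The Hey2 window (chr10:30842734-30843033, minus strand, RBPJ letters in capitals) and the stretch of the Mycn window around its match (chr12:12941824-12941870, minus strand, TCF/LEF letters in capitals), both read 5′ to 3′ along the gene, are:
Hey2: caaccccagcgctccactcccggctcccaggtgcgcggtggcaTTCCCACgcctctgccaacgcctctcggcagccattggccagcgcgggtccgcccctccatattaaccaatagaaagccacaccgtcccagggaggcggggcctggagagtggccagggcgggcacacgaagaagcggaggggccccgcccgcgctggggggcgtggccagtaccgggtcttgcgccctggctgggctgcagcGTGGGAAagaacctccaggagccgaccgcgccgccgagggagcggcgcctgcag
Mycn: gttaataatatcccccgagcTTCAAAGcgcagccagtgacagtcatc

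The other 3 compact-side genes did not pass the test. Mycn, a proto-oncogene of the Myc family that keeps compact cardiomyocytes dividing, ran from 18.4 to 28 CPM (median 22.4) in Wnt GOF and from 17.8 to 28.6 CPM (median 22.9) in control libraries. The groups covered almost the same range. It lay 0.024 ± 0.139 higher in Wnt GOF on the log2 scale, with a 95% interval from -0.27 to 0.32 (edgeR adjusted p = 0.999), so changes within that interval cannot be told from none here. By library set, Mycn averaged 20.9 CPM in Wnt GOF and 21.5 CPM in control libraries of set 1, 20.9 and 19.5 CPM in those of set 2, and 27.9 and 27.4 CPM in those of set 3.

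Prdm16, a zinc-finger regulator of chromatin that in the mouse supports compact genes of the left ventricle, ran from 26.1 to 33.4 CPM (median 28.5) in Wnt GOF and from 24.7 to 41.9 CPM (median 32.6) in control libraries. The Wnt GOF values all lay inside the control range, which was wide because both control libraries of set 2 were at 40.6 CPM or above. Its log2 fold change was -0.18 ± 0.126 (edgeR adjusted p = 0.999), and the log2 ratio of means was -0.36 within set 2 but -0.041 and -0.092 within sets 1 and 3. The annotation places 1.17% of Prdm16's exonic bases under an exon of a gene on the opposite strand, and the strand setting of the counting is not stated.

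Tbx20, a T-box repressor and activator needed for chamber growth, was the most abundant of the 4. It ran from 295 to 368.9 CPM (median 312.5) in Wnt GOF and from 330.6 to 375.5 CPM (median 347.9) in control libraries. Of the 6 Wnt GOF libraries 4 lay under every control library, while Wnt GOF replicate 5, at 368.9 CPM, lay near the top of the control range. On the log2 scale this makes -0.12 ± 0.0678 (edgeR adjusted p = 0.934), with a 95% interval from -0.27 to 0.022.

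The 6 trabecular and left-ventricular genes did not pass the test either. Bmp10, a secreted ligand made by trabecular cardiomyocytes that in the mouse maintains their proliferation, was the lowest per base of transcript. It ran from 5.44 to 12 CPM (median 8.24) in Wnt GOF and from 7.76 to 11.4 CPM (median 9.2) in control libraries, on 70 to 162 and 77 to 163 reads per library. The values spread further in Wnt GOF libraries, where 3 lay under and 1 lay over all control libraries. Its log2 fold change of -0.12 ± 0.17 (edgeR adjusted p = 0.999) went with opposite values in the library sets: 10.6 CPM in Wnt GOF and 8.5 CPM in control libraries of set 1, but 6.29 and 10.4 CPM in those of set 2. It was -0.016 without Wnt GOF replicate 1 and -0.24 without replicate 5.

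Irx3 and Irx5 encode Iroquois homeodomain factors, and are known in the mouse for patterning conduction and repolarisation. Irx3 ran from 7.74 to 12.9 CPM (median 9.07) in Wnt GOF and from 3.27 to 8.43 CPM (median 7.4) in control libraries. All 6 Wnt GOF libraries lay above the control median, and 4 lay above every control library. The log2 fold change was 0.45 ± 0.195 (edgeR quasi-likelihood unadjusted p = 0.0353, adjusted p = 0.701). Without control replicate 1, at 3.27 CPM the lowest library, it was 0.30. The annotation places 4.49% of Irx3's exonic bases under its antisense neighbour Irx3os, so some reads could belong to either.

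Irx5 ran from 6.22 to 13.1 CPM (median 9.31) in Wnt GOF and from 5.51 to 9.37 CPM (median 7.54) in control libraries. The groups overlapped, with 3 Wnt GOF libraries above every control library and Wnt GOF replicate 5 the lowest of its group. Its log2 fold change was 0.41 ± 0.19 (edgeR quasi-likelihood unadjusted p = 0.0489, adjusted p = 0.784). Within the library sets the log2 ratio of means was 0.36, 0.25 and 0.53 for Irx5 and 0.63, 0.12 and 0.61 for Irx3, higher in Wnt GOF in all 3 sets for both genes.

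Cited1, a transcriptional coactivator that binds no DNA itself, and Smpx, a small protein of the muscle cytoskeleton, were the most abundant members. Cited1 ran from 510.1 to 684.1 CPM (median 603.6) in Wnt GOF and from 420.5 to 698 CPM (median 474) in control libraries. All 6 Wnt GOF libraries lay above the control median but none lay above control replicate 6, the highest. The log2 fold change was 0.20 ± 0.128 (edgeR adjusted p = 0.998). Smpx ran from 1012 to 1572 CPM (median 1127) in Wnt GOF and from 1010 to 1553 CPM (median 1194) in control libraries, or -0.022 ± 0.129 on the log2 scale (edgeR adjusted p = 0.999). Its groups covered the same range, and set 2 was high in both, at 1496 CPM in Wnt GOF and 1498 CPM in control libraries, against 1114 and 1152 CPM in set 1.

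Hand1, a basic helix-loop-helix factor of the left ventricle and its outer curvature, ran from 18.1 to 33.8 CPM (median 23.1) in Wnt GOF and from 14.4 to 25.2 CPM (median 20.1) in control libraries. The groups overlapped, with 3 Wnt GOF libraries above every control library. On the log2 scale Hand1 was at 0.25 ± 0.172 (edgeR adjusted p = 0.999), and at 0.13 without Wnt GOF replicate 6. Hand1 differed between the sets in both groups: set 1 averaged 30.3 CPM in Wnt GOF and 25.1 CPM in control libraries, and set 2 averaged 18.8 and 15.5 CPM.

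**Figure D2:**
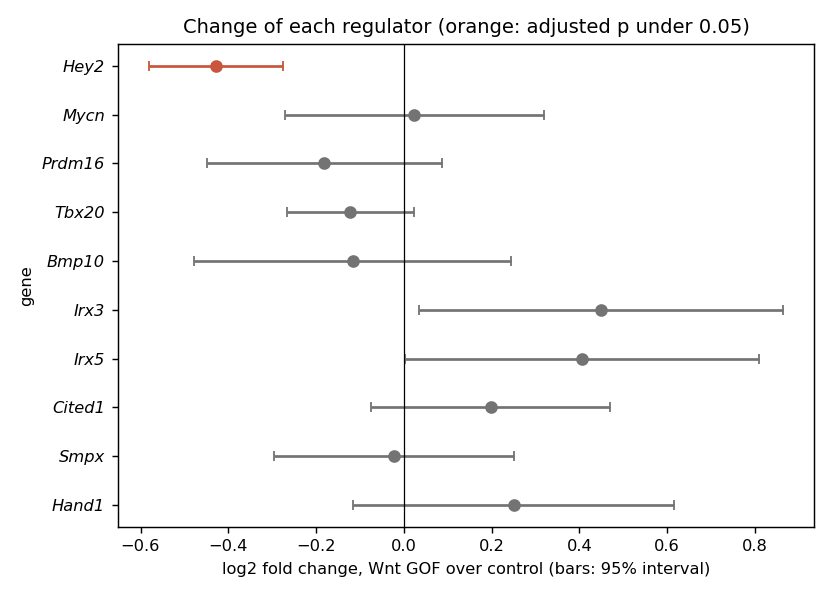
Log2 fold change of Wnt GOF over control (horizontal axis) for each of the 10 regulators, with bars for the 95% interval of edgeR's quasi-likelihood fit. Hey2, at -0.43, is the gene with an adjusted p under 0.05 (orange). Irx3 at 0.45 and Irx5 at 0.41 have intervals that start just above 0 before adjustment.

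The authors' deposited table gives the same direction as the edgeR fit for all 10 members. It lists log2 fold changes of 0.476 for Irx3 and 0.396 for Irx5 with adjusted p-values of 0.688 and 0.86. For Mycn and Smpx it lists 0.0259 and -0.0254, and the direction of these 2 genes turned in the fits described in the closing section.

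Per kilobase of exon, Smpx stood first with 537.1 ± 97.7 CPM per kb in Wnt GOF and 545.4 ± 96.1 CPM per kb in control ventricles (SD, n = 6 each). Cited1 followed with 338.6 ± 39.5 and 295.2 ± 66.3 CPM per kb. Tbx20 came next at 26.7 ± 2.28 CPM per kb in Wnt GOF and 29 ± 1.3 CPM per kb in control libraries. In control libraries Hey2 lay clear of both neighbours in this order, at 21.2 ± 1.5 CPM per kb against at most 12.6 CPM per kb of Hand1. In Wnt GOF libraries Hey2 was at 15.8 ± 1.23 CPM per kb, and its range of 13.9 to 17.7 CPM per kb overlapped that of Hand1, which reached 16.9 CPM per kb. Mycn followed at 7.05 ± 1.19 CPM per kb in Wnt GOF and 6.93 ± 1.37 CPM per kb in control libraries. The ranges of Prdm16, Irx3, Irx5 and Bmp10, all between 1.89 and 3.55 CPM per kb on average, overlapped one another in the order in both groups and lay under the lowest Mycn library, at 5.59 CPM per kb in Wnt GOF and 5.40 CPM per kb in control libraries. Exon lengths are those of GENCODE M21, which may not be the authors' annotation, and a long annotated transcript such as that of Tbx20, with 11997 exonic bases, lowers a value per kb.

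Counts were also set against Hey2 within each library, a ratio that no library scaling can change. The log2 ratio of Irx3 to Hey2 ran from -3.19 to -2.65 (median -2.99) in Wnt GOF and from -4.81 to -3.43 (median -3.72) in control libraries, with no overlap. That of Tbx20 to Hey2 ran from 2.03 to 2.32 (median 2.12) in Wnt GOF and from 1.70 to 2.03 (median 1.84) in control libraries, also without overlap by a narrow margin. The groups overlapped for the other 7 members. Since Hey2 itself did not overlap, such a ratio separates the groups as higher for 19.4% of all tested genes, and 2 of 9 members is near that share. Bmp10 to Hey2, a ratio of a trabecular to a compact gene, averaged -3.14 in Wnt GOF and -3.42 in control libraries and overlapped.

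**Figure D3:**
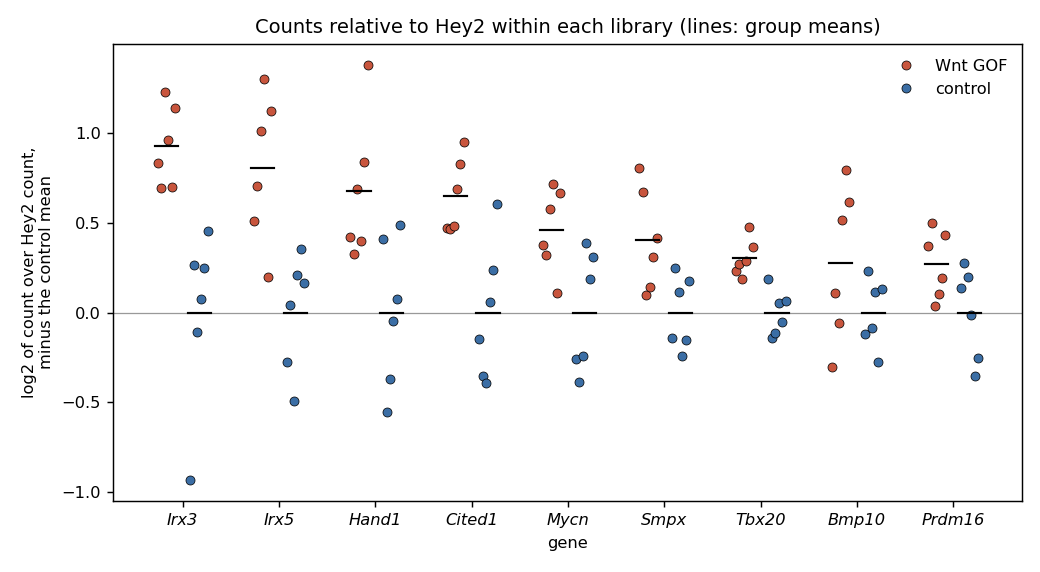
Log2 of each gene's count over the Hey2 count of the same library, minus the control mean (vertical axis), for 6 Wnt GOF libraries (orange, left of each pair) and 6 control libraries (blue, right), with lines at the group means. Irx3 and Tbx20 show no overlap between groups, and Bmp10 and Prdm16 overlap widely.

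Among themselves, the members' patterns over the 12 libraries were compared by the root mean square difference of log2 CPM centred on each gene's mean, where 0 is an identical pattern. Of the 45 pairs, Hey2 and Tbx20 were closest, at 0.184, followed by Prdm16 and Smpx at 0.212. Hand1 and Cited1 differed by 0.246. Over all genes, Hey2 was most like Pla2g16 (0.101 log2 units), Plce1 (0.123) and Spint2 (0.126), where the median gene differed from it by 0.303. Pla2g16 averaged 77.7 CPM in Wnt GOF and 98.2 CPM in control libraries, or -0.34 on the log2 scale (edgeR adjusted p = 0.0885). The nearest gene was Hdac7 for Mycn (0.085), Ivns1abp for Prdm16 (0.0491) and Zmat1 for Tbx20 (0.0479). It was Keap1 for Bmp10 (0.166), Arap2 for Irx3 (0.251) and Col26a1 for Irx5 (0.137). It was Prkrip1 for Cited1 (0.104), Emp2 for Smpx (0.0622) and Zfp58 for Hand1 (0.168). The measure favours genes with little spread, and the libraries share sets, so it describes likeness only.

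Of 10 further genes of the trabecular layer, edgeR called 0 and DESeq2 2, Slit2 (adjusted p = 0.00412) and Nppa (0.00856), both higher. Over all 14774 tested genes DESeq2 called 160. An unadjusted p under 0.05 was reached by 6 in edgeR, 60% of the list against 6.3% of all tested genes. The list was chosen with earlier results of these data known. The 6 were split: 4 were higher and 2 lower in Wnt GOF, and the list's median log2 fold change was -0.051, against 0.0013 over all tested genes. Slit2, a guidance ligand of trabecular muscle, was at 185.1 ± 22.2 CPM in Wnt GOF and 141.4 ± 11.1 CPM in control libraries (SD, n = 6 each; edgeR adjusted p = 0.0569) without overlap. Nppa, which encodes atrial natriuretic peptide, was at 1170 ± 187 CPM and 815.2 ± 127.7 CPM (edgeR adjusted p = 0.0842), and Nppb, its relative, was at 349.4 ± 85.2 CPM and 247.8 ± 39.4 CPM (edgeR adjusted p = 0.309). The 2 on the lower side, named after their values were seen, were Kcne1, a potassium channel subunit, at -0.55 and Irx2 at -0.44 (edgeR adjusted p = 0.604 and 0.786). Gja5, the connexin of fast-conducting trabeculae, was at -0.35 (edgeR adjusted p = 0.946). Without Wnt GOF replicate 5, edgeR called Nppa (adjusted p = 0.0132), Nppb (0.026) and Slit2 (0.0296) as higher.

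**Figure D4:**
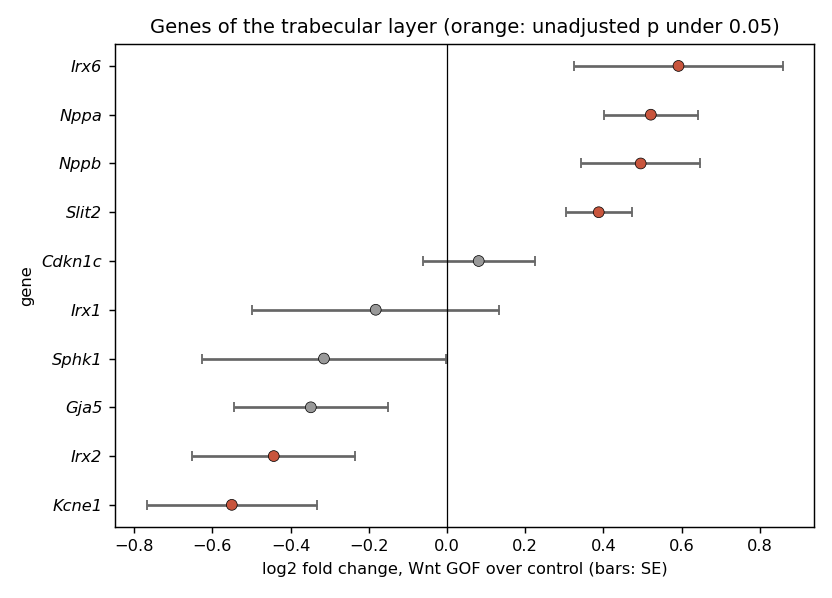
Log2 fold change of Wnt GOF over control (horizontal axis, bars for SE) of 10 genes of the trabecular layer, sorted by value, orange where the unadjusted p was under 0.05. Natriuretic peptide genes, Slit2 and Irx6 lie to the right of 0 and Kcne1 and Irx2 to the left, and 0 of the 10 passed after adjustment.

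Of 20 genes of the signals between endocardium and myocardium, edgeR called 0, with 3 at an unadjusted p under 0.05, and DESeq2 called 2, Nrg1 as higher (adjusted p = 0.0184) and Hey1 as lower (0.0415). Those 3 make 15% of the list, against 6.3% of all tested genes. The median over the 20 was -0.027 on the log2 scale. Nrg1, the endocardial ligand of the ErbB receptors, was at 17.4 ± 2.23 CPM in Wnt GOF and 10.9 ± 3.32 CPM in control libraries (SD, n = 6 each; edgeR adjusted p = 0.13, and 0.0209 without control replicate 6). Its myocardial receptor gene Erbb4 was at 35 ± 6.35 CPM and 41.8 ± 4.24 CPM (edgeR adjusted p = 0.699). Hey1, the Notch target most like Hey2, was at 8.06 ± 0.832 CPM in Wnt GOF and 11.6 ± 2.35 CPM in control libraries, or -0.52 ± 0.14 on the log2 scale (edgeR adjusted p = 0.186). The Notch receptor gene Notch1 had a log2 fold change of 0.073 and Hes1, another Notch target, of 0.039.

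Among 15 tested cell cycle genes that act beside Mycn and Bmp10, Ccnd2 alone passed and rose. Over all tested genes 0.501% were called, 0.433% as higher. An unadjusted p under 0.05 in edgeR was reached by 2 of the 15, or 13.3%, against 6.3% of all tested genes. Ccnd2, a D-type cyclin and a target of Myc proteins, was at 964.7 ± 134.7 CPM in Wnt GOF and 675.8 ± 59.7 CPM in control libraries (SD, n = 6 each), or 0.51 ± 0.0943 on the log2 scale (edgeR adjusted p = 0.0206) without overlap. Ccnd2 missed the threshold at a log2 fold change of 0.48 without Wnt GOF replicate 1 (edgeR adjusted p = 0.0544), of 0.49 without replicate 2 (0.0574) and of 0.50 with the closest pairs summed (0.22). Cdkn1a, a cyclin-dependent kinase inhibitor, lay at 0.62 (edgeR adjusted p = 0.211, and called by DESeq2 and without Wnt GOF replicate 5) and Ccnd3 at -0.17 on the log2 scale (edgeR adjusted p = 0.858). The list's median was 0.011.

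Of 17 tested receptors, Smads and targets around BMP10, neither edgeR nor DESeq2 called any, and 1 reached an unadjusted p under 0.05 in edgeR, 5.88% against 6.3% of all genes. That was Bmp4, a BMP ligand, at 34.9 ± 5.32 CPM in Wnt GOF and 24 ± 10.1 CPM in control libraries (SD, n = 6 each; edgeR adjusted p = 0.784). Smad5 and Bmp5 were at 0.15 and 0.25 on the log2 scale.

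Genes listed beside Hand1 for a side of the ventricle did not pass either. Not all of them, Irx4 and Mef2c among these, are confined to 1 side. Of 4 listed for the left side, edgeR and DESeq2 called 0, and 1 reached an unadjusted p under 0.05 in edgeR. That was Tbx5, a T-box factor, at 0.25 on the log2 scale (edgeR adjusted p = 0.51). Gja5 was at -0.35 and Irx4 at -0.15. Of 5 tested from the list for the right and outflow side, edgeR and DESeq2 called 0. Again 1 reached an unadjusted p under 0.05 in edgeR. That was Isl1, a factor of second heart field progenitors, at -1.61 ± 0.62 on the log2 scale (edgeR adjusted p = 0.586, and 0.028 as lower without Wnt GOF replicate 5). Fgf10 was at 0.80 and Mef2c at 0.14. Of 17 other cardiac factors edgeR and DESeq2 called 0, while 3 reached an unadjusted p under 0.05: Tbx5, Gata6 at -0.16 and Tbx3 at 0.41 (edgeR adjusted p = 0.748 and 0.76). The shares at that unadjusted p were 25%, 20% and 17.6% of these 3 short lists, against 6.3% of all tested genes. Tbx5 alone makes the 25% and is counted again in the 17.6%. The lists were chosen with earlier results of these data known, so these shares are descriptions.

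Markers of other cells that the tissue can hold were read beside these results. Their part in the values of Hey2, Irx3 and Irx5 was not tested. Atrial markers summed to 2596 to 2855 CPM in Wnt GOF and 1922 to 2765 CPM in control libraries. Most of this was Myl4, at 2217 and 1902 CPM on average. Of the 8, edgeR called 1, Angpt1, as higher, and 5 had log2 fold changes above 0. Sln, Dkk3 and Stard10 lay lower in Wnt GOF, at -0.32, -0.48 and -0.22 on the log2 scale. Endocardial and endothelial markers summed to 941.6 to 1022 CPM and 846 to 986.3 CPM, with 0 of 10 called. Epicardial markers summed to 336.6 to 411.3 CPM and 303.4 to 436.1 CPM, with 0 of 8 called. Cushion and fibroblast markers summed to 1598 to 2165 CPM and 1784 to 2521 CPM, with 0 of 8 called. Mural markers summed to 191.3 to 276.5 CPM in Wnt GOF and 215.1 to 408.4 CPM in control libraries. Of these 6, edgeR called 1, Rgs5, as lower, at 13.5 CPM in Wnt GOF and 78.8 CPM in control libraries on average. The others were at 0.75 (Kcnj8), 0.0069 (Pdgfrb), -0.032 (Cspg4), -0.17 (Abcc9) and -0.28 (Notch3) on the log2 scale. Macrophage markers summed to 107.6 to 137.5 CPM and 88.8 to 124.1 CPM, with 0 of 8 called, and nerve markers to 16.8 to 23.7 CPM and 14.5 to 25.5 CPM, with 0 of 2 tested called. Blood markers summed to 12140 to 89400 CPM in Wnt GOF and 9674 to 74790 CPM in control libraries, with 0 of 8 called, and with haemoglobin genes left out Hey2 was at -0.43 on the log2 scale (edgeR adjusted p = 0.0141). DESeq2 called the same 2 markers, Angpt1 and Rgs5. An unadjusted p under 0.05 in edgeR was reached by 6.3% of all tested genes, 3.73% higher and 2.57% lower. Among the markers it was reached by 4 of the 8 macrophage markers, all on the higher side (Ptprc, Aif1, Tyrobp and Fcer1g, at 0.39 to 0.59 on the log2 scale). It was also reached by 2 of the 8 atrial markers (Angpt1 and Tbx5) and 2 of the 6 mural markers (Rgs5 and Notch3). Of the 10 cardiomyocyte and the 10 endothelial markers 1 each reached it, and 0 of the epicardial, cushion, blood and nerve markers. No listed marker was at 0 in all libraries.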

How the data were processed

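Counts are whole numbers of reads per Ensembl gene as the authors deposited them, per the file headers. The submitters' processing notes name Subread, featureCounts and edgeR. The build, annotation, versions and strand setting are not given in those notes. The GC percent column that the authors deposited was not used. The authors' deposited comparison table holds log2 fold changes and log2 CPM, p-values, a log-odds score and a fold column, and its log2 fold changes and p-values are quoted as theirs. Of 41422 rows, 622 repeated a gene ID with identical counts and were dropped.

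Libraries were grouped by genotype label. With edgeR 4.0.16 (R 4.3.3), genes passed filterByExpr (minimum count 10), libraries were scaled by TMM, and groups were compared by the robust quasi-likelihood test on group alone, with p-values adjusted by Benjamini-Hochberg over all tested genes and called under 0.05. CPM use TMM-scaled totals, SE derive from the F statistic, and 95% intervals use the fit's degrees of freedom. Exon lengths and overlaps came from GENCODE M21 (GRCm38) and promoters from RefSeq (GRCm38.p6). Members and lists were chosen with earlier results of these data known. Genes named are the members, the called genes and 3 lowest p-values of each list, and the genes nearest each member. Kcne1, Irx1, Irx2, Irx6, Notch1, Hes1, Heyl and the marker genes were picked with their values in view. One gene of the trabecular list is not reported here and was left out of its counts.

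Other fits used replicate number as a block, DESeq2's size factors, upper-quartile or no scaling, DESeq2 1.42.0, limma-voom (limma 3.58.1), other count filters, no haemoglobin genes, a threshold of 0.01, or 1 library fewer. Library sets as a block (a clustering of deviations from group means, cut at 3) and summed pairs (lowest mean chi-square between libraries) were chosen after seeing the data. The test was checked on simulated counts with known changes. It recovered 90% of log2 changes of 1 and 73.5% of those of -1. At 0.5 it recovered 46% and at -0.5 it recovered 26%, and 6.4% of its calls were false. A change of 0.5 or less on the log2 scale can thus be missed.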

Additional observations from a re-analysis of the deposited data

Results flagged for a closer look

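In 5 of 90 groups of 6 libraries, 2 groups for each of 45 named genes, the highest or lowest library stood far from the others by Dixon's criterion. Chance gives about 1 in 20 such groups. Irx3 had both its groups marked: Wnt GOF replicate 3 was at 12.9 CPM, with the next library at 9.62 CPM, and control replicate 1 was at 3.27 CPM, with the next at 6.66 CPM. Both lie outward from the other group, so each widens the difference between the groups. Erbb4 in control replicate 1 was at 50.1 CPM, with the next at 42 CPM. Ccnd3 in control replicate 2 was at 56 CPM, with the next at 65.2 CPM. Isl1 in Wnt GOF replicate 5 was at 11.6 CPM, with the next at 2.87 CPM, and so lay inside the control range of Isl1.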

How the results depend on the processing

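Hey2 kept its direction in all 24 alternatives and an adjusted p under 0.05 in 23. It missed a threshold of 0.01 (log2 fold change -0.43, which leaves 0 members called, 10 genes in all and 2 listed genes) and the test on summed pairs (-0.43, 0 members, 1 gene and 0 listed genes called), where fewer samples enter. In that last fit Mycn was at -0.050, Bmp10 at 0.012 and Smpx at 0.0064, each with its sign turned. With 1 library left out, Mycn ranged from -0.042 to 0.099 and Smpx from -0.11 to 0.053. The cause was not tested. Irx3, Irx5, Cited1, Hand1, Prdm16 and Tbx20 kept their direction in all 24 alternatives and were called in 0. With 1 library left out Irx3 ranged from 0.30 to 0.51, Irx5 from 0.29 to 0.50, Cited1 from 0.15 to 0.30, Hand1 from 0.13 to 0.32, Prdm16 from -0.25 to -0.10, Tbx20 from -0.17 to -0.099 and Bmp10 from -0.24 to -0.016. Of all genes, DESeq2 called 160, limma-voom 22 and edgeR with library sets as a block 295. Those sets were clustered from deviations in the same data, so this block removes residual spread by construction and its calls are not taken as results. With 1 library left out edgeR called 39 to 177, against 74 with all, and always 1 member. It called 39 to 53 without Wnt GOF replicate 1, 2, 3, 4 or 6, and 177 without replicate 5. Of the listed genes outside the members 4 were called, 12 by DESeq2, 2 by limma-voom, 8 without a count filter, 11 with the library sets and 3 to 13 with 1 library left out. No label states a pairing by replicate number. Same-numbered libraries had correlations of their deviations from -0.377 to 0.463, and 3 of 12 libraries correlated best with their own number. These values cannot tell whether the numbers mark pairs. With this block by replicate number, Hey2 was at -0.43 (edgeR adjusted p = 0.0227), 55 genes were called in all and 3 of the listed genes. Among the members, low counts limit Bmp10, Irx3 and Irx5, at 37 to 206 reads per library.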

Other observations

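The Iroquois genes were set side by side after their values were seen, and no difference by chromosome was tested. Irx3, Irx5 and Irx6, neighbours on chromosome 8, had log2 fold changes of 0.45, 0.41 and 0.59, and Irx1, Irx2 and Irx4, neighbours on chromosome 13, of -0.18, -0.44 and -0.15. None of the 6 passed edgeR's test over all genes (adjusted p from 0.701 to 0.999). An unadjusted p under 0.05 was reached by 4 of these 6, against 6.3% of all tested genes. Reads were few, at 9 to 44 per library for Irx6 and 5 to 34 for Irx1. Irx6 averaged 2.05 ± 0.601 CPM in Wnt GOF and 1.34 ± 0.542 CPM in control libraries, and Irx2 5.17 ± 1.96 CPM and 7.05 ± 1.36 CPM (SD, n = 6 each).

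Of the Hey family, Hey2 alone passed edgeR's test. Hey1 was at -0.52 and Heyl at -0.27 on the log2 scale. All 6 Wnt GOF libraries were under the control median of Hey1, and Heyl averaged 13.2 ± 5.3 CPM in Wnt GOF and 16 ± 3.84 CPM in control libraries. Hey1 had an adjusted p of 0.186 in edgeR, 0.319 with the replicate block and 0.0415 in DESeq2, and Heyl had an unadjusted p of 0.285 (edgeR quasi-likelihood test).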
